A study of Mus musculus with 4 samples.

Results

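Interferon-stimulated genes were followed in 4 single-cell RNA sequencing libraries of cultured mouse adipose cells. The set was a list of 44 gene symbols, chosen by name but with earlier results of these data known. Of these, 42 had a row among the 32285 genes of the count tables. *Mx1* and *Mx2* were not analysed here. Cells were taken as barcodes with 5000 to 75000 UMIs, 200 to 7500 detected genes and under 10% mitochondrial UMIs, which gave 28262 cells in all. A UMI is a molecular barcode that marks 1 captured RNA molecule. A level is given as UMIs per 1000000 UMIs of all cells of a library (CPM).

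The cells came from chow-fed male C57BL/6J mice. De-differentiated adipocytes (DFAT cells) were grown by ceiling culture, in which floating fat cells attach to the top of a flask, lose their lipid and turn into spindle-shaped cells. The iWAT_DFAT library held DFAT cells from inguinal white adipose tissue (iWAT, subcutaneous fat) and the eWAT_DFAT library those from epididymal white adipose tissue (eWAT, visceral fat). The iWAT_SVF and eWAT_SVF libraries held stromal vascular fraction (SVF) cells cultured from the 2 depots, which the study calls ASPCs, adipose stem and progenitor cells. All 4 cultures were dissociated with trypsin, sorted after 7-AAD staining for dead cells and profiled with 10x 3′ chemistry. The sources used here give neither the number of mice behind a library nor the age of the mice. With 1 library per condition no test between conditions was possible, and all intervals cover counting error only.

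Interferons are secreted proteins that cells release when they sense viral or misplaced nucleic acid. Type I interferons bind the receptor chains IFNAR1 and IFNAR2, and the attached JAK kinases then activate transcription factors, among them STAT2, which joins IRF9 and switches on genes that carry an interferon-stimulated response element. The products of these genes sense RNA and DNA, block viral translation and entry, tag proteins with ISG15 and feed back on the pathway itself. Stromal cells of most tissues carry the receptors and hold a low tonic level of this program. The response is known for differing strongly from cell to cell in a culture.

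The cells of each library numbered between 6464 and 7629, and the median depth of a cell lay between 22111 and 27617 UMIs. Of all cell barcodes, 97 were a cell in 2 or more libraries. A UMI of 3 or more stromal markers such as *Pdgfra* and *Col1a1* was found in 94.8% to 99.5% of the cells. The 11 stromal markers summed to 2624 CPM in eWAT_DFAT and to 8356, 8565 and 7715 CPM in iWAT_DFAT, iWAT_SVF and eWAT_SVF, so eWAT_DFAT stood apart, and the part of this in the comparisons with that library was not tested. Markers of immune cells summed to between 18.7 and 64.8 CPM over 11 genes, with *Cd3e* and *Siglech* at 0 in all 4 libraries, and 4 to 36 cells per library carried 3 or more of them. The median mitochondrial share was 3.12% in iWAT_DFAT and lay between 1.95% and 2.25% in the other libraries, and its part in the results below was not tested. The file header of the iWAT_SVF table named another Cell Ranger version than those of the other libraries. Genes spanning 100 kb or more, where the counting of intronic reads weighs most, had a higher median log2 ratio than genes under 10 kb in each comparison: 0.29 against -0.04 for iWAT_DFAT over eWAT_DFAT, 0.13 against -0.01 for iWAT_SVF over eWAT_SVF, 0.31 against -0.07 for iWAT_DFAT over iWAT_SVF and 0.15 against -0.01 for eWAT_DFAT over eWAT_SVF.

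The promoters of the members were searched for sequence elements of the interferon response. Genes of this kind are known for such elements, so the shares below are no result independent of the list. RefSeq promoter windows of 300 bases, from 250 before to 50 after a start site, were matched for 32 of the 42 members. The letters GAAA, any 2 bases and again GAAA, the core of the interferon-stimulated response element, were present on either strand in the windows of 19 of these 32 members, 59.4%, and in those of 3.99% of all 27025 genes in the table. The letters TTCNNNGAA, known as the gamma-activated sequence and identical on both strands, were found for 9 of the 32 members, 28.1%, and for 9.55% of all genes. The windows below belong to the 5 members with the greatest ratio between the DFAT libraries among those with a match to this element, taking at most 1 per role group. *Oas3* and *Rsad2* among them were under 5 CPM in all 4 libraries. The windows are shown so that the element can be seen in its place, and since the DFAT ratio chose them it is no result about them. Bases run 5′ to 3′ on the strand of the gene in build GRCm38.p6, and capitals mark the matches, which read TTTC, 2 bases and TTTC where the element lies on the opposite strand.
Ifit3: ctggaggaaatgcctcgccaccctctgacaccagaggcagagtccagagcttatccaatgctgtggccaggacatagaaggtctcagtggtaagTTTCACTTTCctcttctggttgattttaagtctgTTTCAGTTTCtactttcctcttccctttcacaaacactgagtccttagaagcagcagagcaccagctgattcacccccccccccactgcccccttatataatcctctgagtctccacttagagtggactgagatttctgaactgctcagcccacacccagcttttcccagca
Oas3: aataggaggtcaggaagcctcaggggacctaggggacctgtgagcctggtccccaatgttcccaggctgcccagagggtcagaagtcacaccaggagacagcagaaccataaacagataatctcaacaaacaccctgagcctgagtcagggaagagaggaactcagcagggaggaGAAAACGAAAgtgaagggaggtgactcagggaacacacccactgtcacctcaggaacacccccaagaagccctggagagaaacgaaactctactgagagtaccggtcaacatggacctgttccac
Rsad2: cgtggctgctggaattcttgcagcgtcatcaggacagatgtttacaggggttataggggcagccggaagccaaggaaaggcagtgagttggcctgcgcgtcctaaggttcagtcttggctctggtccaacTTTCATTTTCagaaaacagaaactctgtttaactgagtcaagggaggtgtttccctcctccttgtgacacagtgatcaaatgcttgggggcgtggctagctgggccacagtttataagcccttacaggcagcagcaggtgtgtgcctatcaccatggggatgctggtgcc
Irgm2: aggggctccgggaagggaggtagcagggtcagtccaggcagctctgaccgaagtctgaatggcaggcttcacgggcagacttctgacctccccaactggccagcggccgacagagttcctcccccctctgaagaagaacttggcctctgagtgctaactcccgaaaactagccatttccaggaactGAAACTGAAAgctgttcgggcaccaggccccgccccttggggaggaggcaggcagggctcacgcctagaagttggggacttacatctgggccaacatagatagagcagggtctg
Ifi203: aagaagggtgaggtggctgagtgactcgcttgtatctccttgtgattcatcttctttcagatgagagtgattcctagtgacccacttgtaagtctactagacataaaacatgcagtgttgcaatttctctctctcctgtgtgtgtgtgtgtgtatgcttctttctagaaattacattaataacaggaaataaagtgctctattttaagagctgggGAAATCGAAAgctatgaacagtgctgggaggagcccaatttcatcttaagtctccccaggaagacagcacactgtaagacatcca
The *Ifit3* window (chr19:34583279-34583578, plus strand) held 2 matches on the opposite strand, which began 156 and 122 bases before the start site. The *Oas3* window (chr5:120777610-120777909, minus strand) held 1 match, 75 bases before the start. In *Rsad2* (chr12:26456403-26456702, minus strand) the match began 120 bases before the start, in *Irgm2* (chr11:58214727-58215026, plus strand) 64 bases and in *Ifi203* (chr1:173942443-173942742, minus strand) 35 bases. *Isg15*, not printed, had the most matches of a member, 3. A match is a description of these letters and does not show a bound site. The 19 members with a response element match had a median log2 ratio of iWAT over eWAT of 1.51 in the DFAT and -1.28 in the SVF libraries, and the 13 without it 1.35 and -0.57. For the gamma-activated sequence the medians were 0.93 and -1.21 with a match and 1.46 and -0.997 without. Unlike the medians given further on for members tested, these medians include members under 5 CPM. The -1.28 is the value of *Ifit3b*, which was under 5 CPM in both SVF libraries. The part of such members in the differences was not tested.

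Across the members the levels were highest in iWAT_DFAT and lowest in iWAT_SVF. The median member stood at 14.7 CPM in iWAT_DFAT, 4.85 CPM in eWAT_DFAT, 3.34 CPM in iWAT_SVF and 8.21 CPM in eWAT_SVF. iWAT_DFAT was the highest library for 31 of the 42 members and the lowest for none of them, whereas iWAT_SVF was the lowest for 24 members and eWAT_DFAT for 16. The order of the libraries was not counted over all genes, so these counts have no background. All members together took 0.241% of the UMIs of iWAT_DFAT cells, 0.126% in eWAT_DFAT, 0.119% in iWAT_SVF and 0.179% in eWAT_SVF. *Ifitm3* alone, which encodes a membrane protein that hinders viral entry, made up between 64.5% and 77.1% of these member UMIs. The plot of levels by role group shows the order of the libraries gene by gene. For the 105 member levels at 5 CPM or more, the 95% Poisson limits lay at most 6.51% of the level away, averaged over both sides.

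**Figure D1:**
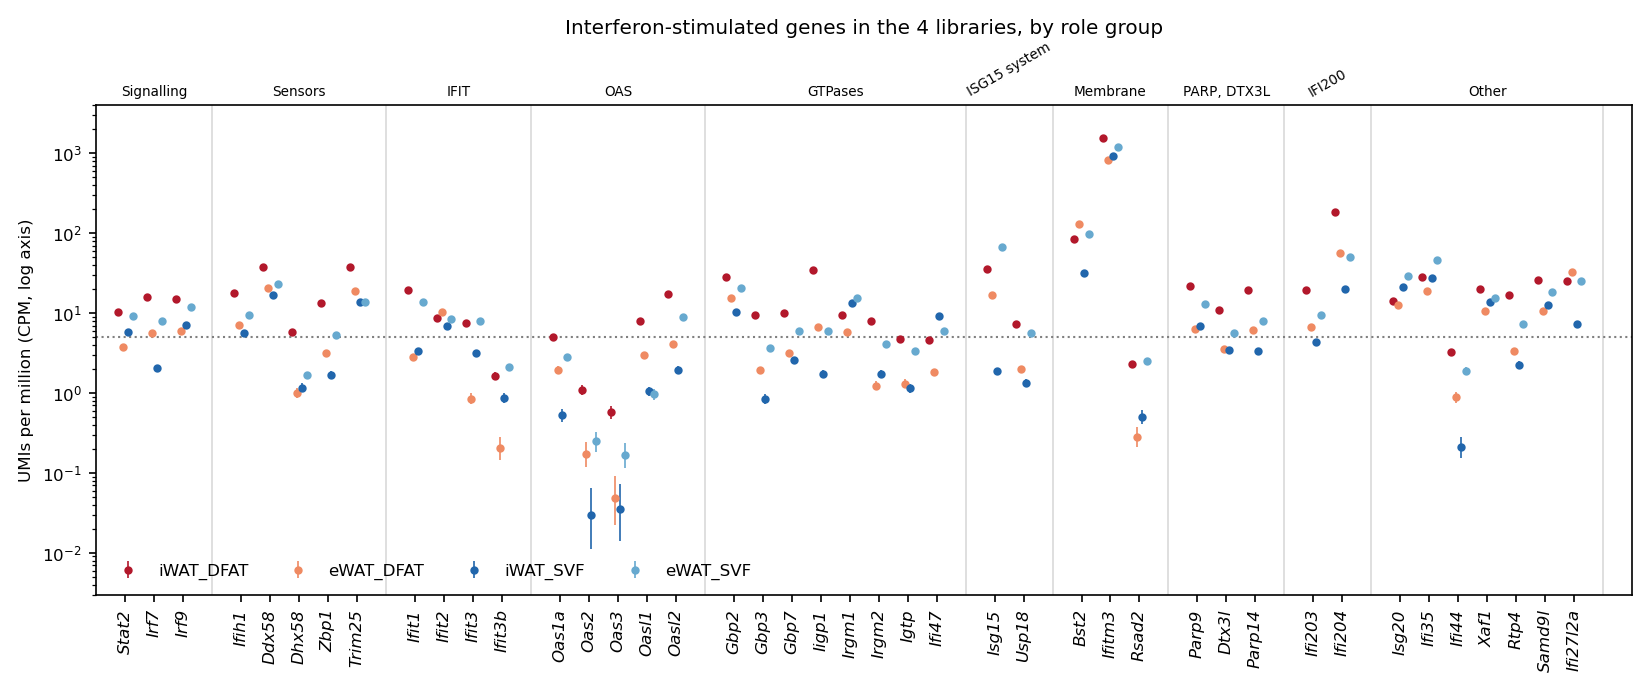
Level of each of the 42 measured members in the 4 libraries, in CPM on a log axis, grouped by role; bars are exact 95% Poisson intervals of the counts and the dotted line marks 5 CPM. iWAT_DFAT, in dark red, is the highest library for 31 members, a count not made over all genes. *Isg15* spans the widest range among members above the line, from 1.88 CPM in iWAT_SVF to 67.2 CPM in eWAT_SVF.

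The first comparison asked how DFAT cells of the 2 depots differ. Of the 35 members at 5 CPM or more in either library, 24 were 2-fold or more higher in iWAT_DFAT than in eWAT_DFAT and 0 were 2-fold or more lower. Over all genes tested in the same way, 8.29% were higher and 3.95% lower by this fold. Counted by library, 35 members reached 5 CPM in iWAT_DFAT, 21 in eWAT_DFAT, 18 in iWAT_SVF and 31 in eWAT_SVF. Of all genes 10013, 9816, 9792 and 9750 did so. Here and in the comparisons below, members thus passed the minimum through the higher library alone more often than genes in general. The part of this in the counts was not tested. The median log2 ratio of the 35 members was 1.46, beside 0.09 for all 10384 genes. Among all 42 members the ratio was above 0 for 39, with the counting interval also above 0 for all of them. In bulk sums of this kind, a larger share of responding cells and more RNA per cell cannot be told apart. The spread over cells is therefore given further on.

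The transcription factors that carry the interferon signal were higher in iWAT_DFAT. *Irf7*, the factor that amplifies type I interferon production, stood at 16.0 CPM in iWAT_DFAT, 5.64 in eWAT_DFAT, 2.06 in iWAT_SVF and 7.87 in eWAT_SVF, a log2 ratio between the DFAT libraries of 1.51 (95% counting interval 1.40 to 1.61). *Irf9*, the DNA-binding partner of STAT2, followed with 15.2, 5.93, 7.12 and 11.8 CPM, libraries ordered as before, and a DFAT ratio of 1.36. *Stat2* had 10.2, 3.72, 5.76 and 9.20 CPM. All 3 factors were above 2-fold between the DFAT libraries, in the narrow range of 1.36 to 1.51 on the log2 scale.

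Of the 5 members in the group of nucleic acid sensors and their ligase *Trim25*, 3 were above 2-fold, all of them sensors. *Ddx58*, which encodes the RNA sensor RIG-I, had the highest count of the group with 38.2 CPM in iWAT_DFAT, 20.5 in eWAT_DFAT, 16.7 in iWAT_SVF and 23.2 in eWAT_SVF. Its log2 ratio between the DFAT libraries, 0.90 (0.84 to 0.95), was the smallest of the sensors. *Dhx58*, encoding the RIG-I relative LGP2, had the largest ratio, 2.54 (2.31 to 2.77), at 5.78, 0.997, 1.17 and 1.67 CPM. *Zbp1*, a sensor of left-handed nucleic acid, stood at 13.6 and 3.13 CPM in the DFAT libraries, and *Ifih1*, encoding MDA5, at 17.8 and 7.19 CPM. *Trim25*, the ubiquitin ligase that activates RIG-I, had a ratio of 0.99, just short of 2-fold.

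The IFIT genes encode proteins that bind viral RNA and slow its translation, and they diverged. *Ifit1* had 19.6 CPM in iWAT_DFAT, 2.79 in eWAT_DFAT, 3.36 in iWAT_SVF and 13.9 in eWAT_SVF. *Ifit3* had 7.44, 0.851, 3.18 and 7.95 CPM, and its DFAT ratio of 3.13 (2.89 to 3.37) was the largest of all members at 5 CPM or more. *Ifit2* stood apart with 8.67, 10.4, 6.83 and 8.46 CPM. Its ratio between the DFAT libraries was -0.26 (-0.36 to -0.17), and its levels in the 4 libraries lay within 1.53-fold of each other. The 4 IFIT genes lie within 99.3 kb on chromosome 19 (build mm10, 34550694 to 34650009), with *Ifit2* at 34550694 to 34576419 and *Ifit3* at 34583531 to 34588731. *Ifit3* and *Ifit3b* are near-identical copies, so counts may be split between them.

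The OAS genes encode enzymes and relatives that respond to double-stranded RNA. *Oasl2* had 17.3 CPM in iWAT_DFAT, 4.06 in eWAT_DFAT, 1.97 in iWAT_SVF and 8.85 in eWAT_SVF, a DFAT ratio of 2.09 (1.97 to 2.20). *Oas1a* had the smallest DFAT ratio of the 3 OAS genes above the minimum, 1.37 (1.19 to 1.55), at 5.03, 1.95, 0.527 and 2.81 CPM. *Oasl1*, a brake on *Irf7* translation, had 8.01, 2.99, 1.05 and 0.962 CPM. It differed from its neighbour *Oasl2*, which lies within the same 41.0 kb of chromosome 5, in that the SVF libraries did not separate, with a log2 ratio of 0.12 (-0.17 to 0.42).

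The interferon-inducible GTPases attack membranes around pathogens. *Iigp1* had 35.1 CPM in iWAT_DFAT, 6.66 in eWAT_DFAT, 1.75 in iWAT_SVF and 5.99 in eWAT_SVF, the highest count of the group and a DFAT ratio of 2.40 (2.31 to 2.49). *Irgm2* had 8.06, 1.24, 1.75 and 4.16 CPM and the largest ratio of the group, 2.70 (2.50 to 2.91), though it overlaps *Igtp* on the same strand and reads between the 2 genes may be split. *Irgm1*, a regulator of these GTPases, had the smallest ratio, 0.70 (0.59 to 0.81), with 9.45, 5.82, 13.5 and 15.5 CPM. *Irgm1* and *Ifi47*, which span 235 kb of chromosome 11, were higher in both SVF libraries than in either DFAT library. *Gbp2*, *Gbp3* and *Gbp7*, guanylate-binding proteins in 108 kb of chromosome 3, had DFAT ratios of 0.86, 2.27 and 1.63.

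*Isg15* encodes a ubiquitin-like tag and *Usp18* the protease that removes it and also dampens receptor signalling. *Isg15* stood at 35.7 CPM in iWAT_DFAT, 16.99 in eWAT_DFAT, 1.88 in iWAT_SVF and 67.2 in eWAT_SVF. Its DFAT ratio was 1.07 (1.01 to 1.13). With the median ratio of all genes set to 1, *Isg15* fell under 2-fold between the DFAT libraries. Of 35 members 23 were then higher, beside 7.16% of all genes. *Usp18* had 7.29, 1.98, 1.34 and 5.57 CPM and a DFAT ratio of 1.88 (1.71 to 2.05). In the main scaling, both genes were thus 2-fold or more apart in each of the 4 comparisons made here, which share libraries. The same held for *Ifit1*, *Ifit3*, *Oasl2* and *Rtp4*, a chaperone of membrane receptors with 16.8, 3.36, 2.27 and 7.40 CPM.

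Neither of the 2 membrane proteins above the minimum reached 2-fold between the DFAT libraries. *Ifitm3* had 1552 CPM in iWAT_DFAT, 816 in eWAT_DFAT, 917 in iWAT_SVF and 1196 in eWAT_SVF, a DFAT ratio of 0.93 (0.92 to 0.94). *Bst2*, which encodes tetherin, a protein that holds budding virus at the cell surface, was the lowest of all members in this comparison. It had 85.5 CPM in iWAT_DFAT and 132 in eWAT_DFAT, with 32.2 and 97.97 in the SVF libraries, and a DFAT ratio of -0.63 (-0.66 to -0.60). *Rsad2*, encoding the antiviral enzyme viperin, stayed under 5 CPM everywhere.

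The PARP and IFI200 groups each had like ratios among their members. *Parp9*, *Dtx3l* and *Parp14*, 3 neighbours on chromosome 16 whose proteins modify other proteins with ADP-ribose or ubiquitin, had DFAT ratios between 1.65 and 1.78. *Parp9* had 22.0 CPM in iWAT_DFAT, 6.43 in eWAT_DFAT, 6.83 in iWAT_SVF and 12.9 in eWAT_SVF. *Parp9* and *Dtx3l* overlap on opposite strands. *Ifi204*, a DNA sensor of the IFI200 family, had 186, 56.6, 19.9 and 50.6 CPM and a ratio of 1.72 (1.68 to 1.75). Its relative *Ifi203*, which overlaps *Mndal* on the same strand, had 19.3, 6.79, 4.30 and 9.36 CPM and a ratio of 1.51.

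The 7 remaining members were mixed. *Ifi35* had the highest count with 28.2 CPM in iWAT_DFAT, 18.8 in eWAT_DFAT, 27.2 in iWAT_SVF and 46.5 in eWAT_SVF. *Ifi27l2a*, a small mitochondrial protein gene, had 25.0, 32.6, 7.25 and 25.6 CPM and the smallest ratio of the group, -0.38 (-0.44 to -0.32). *Rtp4* had the largest, 2.33 (2.20 to 2.45). *Isg20*, an RNA exonuclease gene, had a ratio of 0.16, *Xaf1*, linked to cell death, 0.90 and *Samd9l*, a translation inhibitor, 1.29. The 6 members under 5 CPM in all 4 libraries were *Ifit3b*, *Oas2*, *Oas3*, *Igtp*, *Rsad2* and *Ifi44*, with DFAT ratios between 1.84 and 3.56. *Ifi47* was another member under this minimum in the DFAT libraries, at 4.63 and 1.82 CPM.

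The same depots were then compared in the SVF cultures, and there the order was the opposite. Of 31 members at 5 CPM or more, 15 were 2-fold or more lower in iWAT_SVF than in eWAT_SVF and 0 were higher, beside 3.94% lower and 2.94% higher over all genes. The median log2 ratio of these members was -0.997, against 0.05 for all 10135 genes. Over all 42 members, 39 ratios were below 0, each with its counting interval below 0. *Isg15* was the extreme at -5.16 (-5.32 to -5.01), from 374 UMIs in iWAT_SVF and 13280 in eWAT_SVF. Among the members at 5 CPM or more, *Oasl2* followed with -2.17 (-2.33 to -2.01), *Ifit1* with -2.05 (-2.18 to -1.93) and *Usp18* with -2.05 (-2.25 to -1.86). In eWAT_SVF *Oasl2* was higher in cells with mesothelial markers, described further on. These cells numbered 547 there and 1 in iWAT_SVF, and their part in the *Oasl2* ratio was not tested. *Ifi47* was the only member with an interval above 0, at 0.62 (0.51 to 0.73). *Trim25* was even at 0.01 (-0.07 to 0.09).

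The 2 depot comparisons share no library, so their ratios can be set side by side. Of 42 members, 36 were higher in the iWAT library among DFAT cells and lower in it among SVF cells. This pattern at any size was not counted over all genes. *Ifi47*, *Oasl1* and *Trim25* had both ratios above 0, while *Ifit2*, *Bst2* and *Ifi27l2a* had both below 0. Among 30 members tested in both comparisons, 13 were 2-fold or more higher in iWAT_DFAT and 2-fold or more lower in iWAT_SVF, beside 0.727% of the 9762 genes tested in both. These 13 were *Isg15*, *Ifit1*, *Ifit3*, *Oasl2*, *Iigp1*, *Rtp4*, *Usp18*, *Zbp1*, *Irf7*, *Ifi204*, *Parp14*, *Gbp7* and *Ifi203*. They made up 18.3% of the 71 genes with this pattern. For *Isg15* the 2-fold call between the DFAT libraries depended on the scaling, as given above. Whether the contrast between DFAT and SVF would recur in further cultures was not tested.

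**Figure D2:**
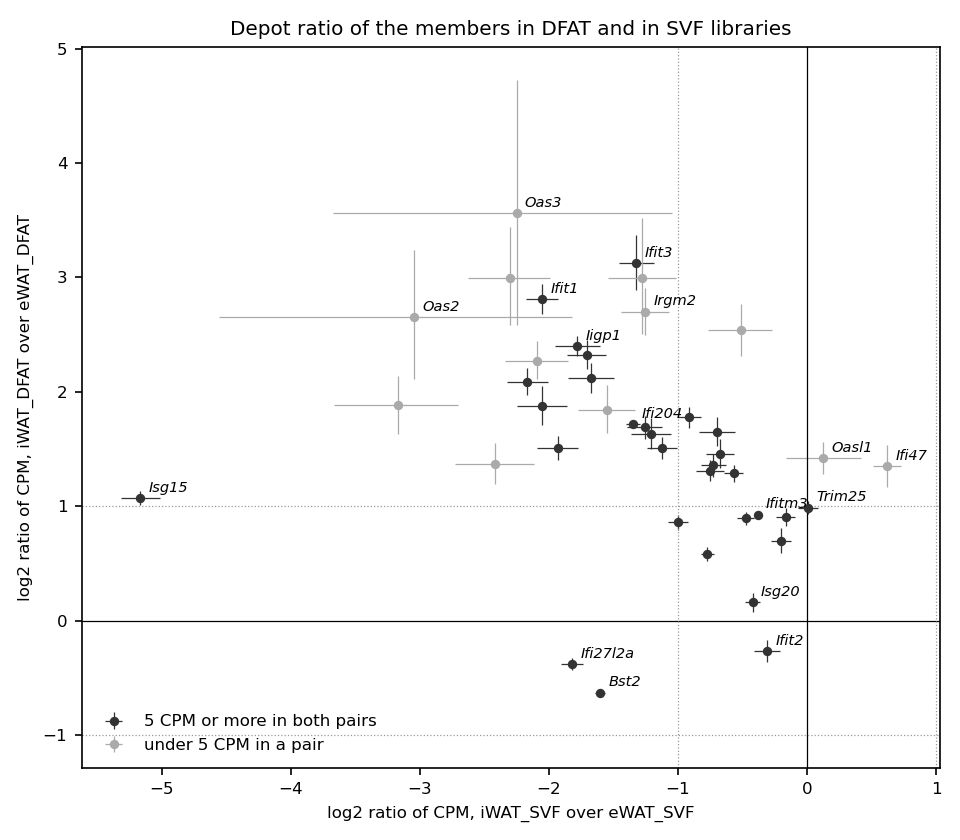
Log2 ratio of the level in iWAT over that in eWAT for each member, in SVF libraries (x axis) and in DFAT libraries (y axis); bars are 95% counting intervals and dotted lines mark 2-fold. Of 42 members 36 sit in the upper left, higher in iWAT_DFAT than eWAT_DFAT and lower in iWAT_SVF than eWAT_SVF, with *Isg15* far to the left at -5.16. The count at any size was not made over all genes.

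Within iWAT, DFAT cells were compared with cultured SVF cells. Of 36 members at 5 CPM or more, 28 were 2-fold or more higher in iWAT_DFAT and 0 lower, beside 9.91% and 5.18% of all genes. The median log2 ratio of these members was 1.74 and that of all genes 0.09. *Iigp1* had the largest ratio, 4.33 (4.17 to 4.49), then *Isg15* with 4.25 (4.10 to 4.40) and *Gbp3* with 3.47. *Ifi204* had 3.22 (3.17 to 3.27). The members below 0 were *Ifi47* at -0.99 (-1.11 to -0.87), *Isg20* at -0.60 and *Irgm1* at -0.51.

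Within eWAT the members were lower in DFAT cells. Of 31 members at 5 CPM or more, 12 were 2-fold or more lower in eWAT_DFAT than in eWAT_SVF and 0 higher. Over all genes 6.67% were lower and 6.44% higher. The median log2 ratio of these members was -0.77, with 0.07 for all genes. *Ifit3* had -3.22 (-3.47 to -2.99), *Ifit1* -2.32 (-2.46 to -2.18) and *Isg15* -1.98 (-2.04 to -1.93). *Bst2* at 0.43, *Trim25* at 0.47 and *Ifi27l2a* at 0.35 were among the 6 members above 0 at 5 CPM or more. Without the cells that carried the most core transcripts, described further on, 7 of 26 members were lower, beside 6.54% of all genes. The 1 higher member, beside 6.36%, was *Iigp1*, at 6.44 against 2.87 CPM, and the median log2 ratio was -0.44. Without all cells with a core UMI, 4 of 21 were lower, beside 6.57%, and 1 was higher, beside 6.32%. The median log2 ratio was then -0.13. The 2 comparisons between DFAT and SVF cells share libraries with the depot comparisons and add no separate evidence to them.

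The rest of the pathway was counted from a list of 35 genes, fixed with earlier results of these data known. Few ligand transcripts were seen: 7 of 10 interferon genes, *Ifnb1*, *Ifna1*, *Ifna2*, *Ifna4*, *Ifna5*, *Ifnl2* and *Ifnl3*, had 0 UMIs in all 4 libraries. A count of 3 UMIs would equal 0.0163 CPM in iWAT_DFAT, the library with the fewest UMIs in its cells. *Ifne*, *Ifnk* and *Ifng* had 3 UMIs or fewer per library. Among 22 pathway genes at 5 CPM or more, 7 were 2-fold or more higher in iWAT_DFAT than in eWAT_DFAT and 0 lower, beside the 8.29% and 3.95% of all genes, with a median log2 ratio of 0.82. In the SVF cultures 1 of 20 was lower, *Socs3*, and 0 higher, a count near the 3.94% of all genes, with a median log2 ratio of -0.26.

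The receptor chains were above the minimum except *Ifnlr1*, the chain for type III interferon. Of the 5 above it, 1 was 2-fold or more higher in iWAT_DFAT than eWAT_DFAT and 0 lower, beside 8.29% and 3.95% of all genes. The log2 ratios of these chains ran from -0.23 to 1.17. *Ifnar1* had 49.8 CPM in iWAT_DFAT, 22.1 in eWAT_DFAT, 18.1 in iWAT_SVF and 17.2 in eWAT_SVF, and *Ifnar2* had 197, 105, 69.0 and 108 CPM. The kinase genes *Jak1*, with 435, 195, 168 and 218 CPM, and *Jak2*, with 149, 68.0, 31.7 and 39.0 CPM, had the same library on top. Of the 7 kinases and factors above the minimum, 3 were 2-fold or more higher in iWAT_DFAT than eWAT_DFAT, beside 8.29% of all genes. Their log2 ratios ran from -0.17 to 1.36. *Socs1*, with 16.7, 5.94, 4.64 and 3.80 CPM, and *Socs3*, with 40.05, 9.37, 8.59 and 18.8 CPM, encode feedback inhibitors of JAK kinases and had DFAT ratios of 1.49 and 2.09. Of the 8 sensing adaptors above the minimum, 1 was 2-fold or more higher in iWAT_DFAT, the kinase gene *Ikbke*, a count near the 8.29% of all genes. The DNA sensor gene *Cgas* had 6.51, 8.90, 6.29 and 5.18 CPM, and *Mavs*, the adaptor of RIG-I, 5.73, 7.13, 8.05 and 7.80 CPM.

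The spread over cells was measured after thinning each cell to 5000 UMIs, so that depth was equal. Without *Ifitm3* and *Bst2*, the other 40 members summed to a mean of 4.21 UMIs per cell in iWAT_DFAT, 1.74 in eWAT_DFAT, 1.21 in iWAT_SVF and 2.57 in eWAT_SVF. The medians were 3, 1, 1 and 2 UMIs. Cells with none of these members made up 10.0% of iWAT_DFAT, 27.5% of eWAT_DFAT, 36.7% of iWAT_SVF and 22.3% of eWAT_SVF. The median cell, and not the top of the distribution alone, was thus highest in iWAT_DFAT. At the top, 1.47% of iWAT_DFAT and 0.830% of eWAT_SVF cells reached 20 UMIs, beside 0.170% and 0.0943% in eWAT_DFAT and iWAT_SVF. The richest 1% of cells held 7.58%, 9.39%, 9.85% and 12.3% of these UMIs, in the order iWAT_DFAT, eWAT_DFAT, iWAT_SVF and eWAT_SVF.

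**Figure D3:**
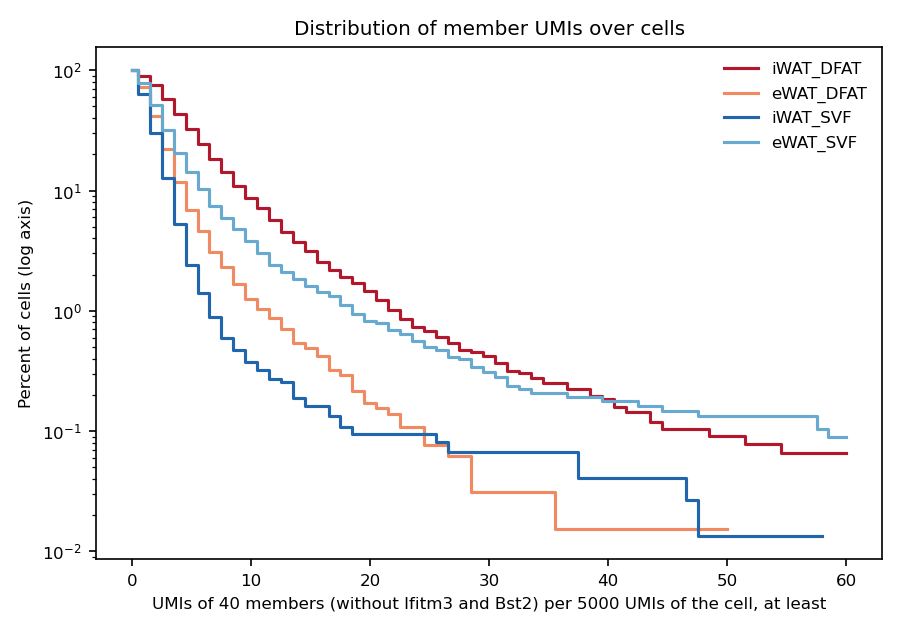
Percent of cells (log axis) with at least the given number of UMIs of 40 members, after thinning each cell to 5000 UMIs, for the 4 libraries. iWAT_DFAT lies above the other libraries at 5, 10, 20 and 30 UMIs, and eWAT_SVF lies above it at 45 and 50 UMIs; the axis ends at 60 UMIs and the richest cell, in eWAT_SVF, held 112.

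Single members varied in how evenly they were spread. The variance over the mean across cells is near 1 for random sampling, and members at 1.5 or more numbered 8 of 35 in iWAT_DFAT, 5 of 21 in eWAT_DFAT, 2 of 18 in iWAT_SVF and 8 of 31 in eWAT_SVF. Over all genes at 5 CPM or more the shares were 7.55%, 8.25%, 7.06% and 8.1%. *Ifit3* reached 3.48 in iWAT_DFAT and 5.88 in eWAT_SVF, and was seen in 2.42% and 1.76% of the thinned cells. *Ifit1* was seen in 7.20% of iWAT_DFAT cells (18.2% at full depth), 1.21% of eWAT_DFAT, 1.05% of iWAT_SVF and 3.97% of eWAT_SVF cells. *Ifi204*, by contrast, was seen in 57.9% of thinned iWAT_DFAT cells with a ratio of 1.24, close to even. *Ifit2* had a ratio between 1.02 and 1.09 in the 4 libraries, where *Ifit1* had 2.05 to 4.62. *Ifi27l2a* had the highest ratio of a member, 9.88 in iWAT_DFAT.

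Free RNA in the droplets can give such UMIs. Droplets with 100 UMIs or fewer held the median member at 0.878 to 1.06 times its level in cells. At 5% of a cell's UMIs, this free RNA would give an *Ifit1* UMI in 0.331% of thinned iWAT_DFAT cells and in 0.0405% of eWAT_DFAT cells. No cell type known to lack these genes was present as a reference. Cells with 3 or more Schwann cell markers, 139 in iWAT_SVF at a median depth of 11406 UMIs, held *Ifitm3* at 272 CPM, below the 917 CPM of the library as a whole.

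A core of 10 members was used to mark cells with a strong response: *Ifit1*, *Ifit2*, *Ifit3*, *Ifit3b*, *Isg15*, *Rsad2*, *Usp18*, *Oasl1*, *Oasl2* and *Irf7*. Cells with 5 or more core UMIs after thinning are called core-high here. They numbered 197 of 7629 in iWAT_DFAT, 2.58% (exact 95% binomial interval 2.24% to 2.96%), and 27 of 6464 in eWAT_DFAT, 0.418% (0.275% to 0.607%). In iWAT_SVF there were 19 of 7424, 0.256% (0.154% to 0.399%), and in eWAT_SVF 212 of 6745, 3.14% (2.74% to 3.59%). The limit cuts a range and does not define a type: 118 further iWAT_DFAT cells and 65 eWAT_SVF cells had 4 core UMIs. Core-high cells held 48.8% of all core UMIs in eWAT_SVF, 32.6% in iWAT_DFAT, 27.3% in iWAT_SVF and 12.9% in eWAT_DFAT.

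The 32 members outside the core were not used to choose these cells, although they were counted in the same cells. Genes were counted here at 5 CPM or more in the other cells, so that none passed through the core-high cells. In iWAT_DFAT 23 of 26 such members were 2-fold or more higher in core-high cells than in the library's other cells, against 1.07% of all genes outside the core. In eWAT_SVF this was 19 of 20, against 0.729%. In the libraries with few core-high cells it was 16 of 18 in eWAT_DFAT, against 2.1%, and 15 of 17 in iWAT_SVF, against 2.68%. These members had a median log2 ratio of 2.19 in iWAT_DFAT, 1.89 in eWAT_DFAT, 2.65 in iWAT_SVF and 2.09 in eWAT_SVF, and that of all genes lay between -0.09 and -0.07. *Zbp1* had 83.6 CPM in core-high and 12.03 CPM in other iWAT_DFAT cells, and 53.4 and 3.81 CPM in eWAT_SVF. *Iigp1* had 237 and 30.6 CPM in iWAT_DFAT and 103 and 2.87 CPM in eWAT_SVF. In eWAT_SVF both were thus under the minimum in the other cells and outside the count.

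The other cells of each library carried the depot order as well. *Ifi204* had 182 CPM in the other iWAT_DFAT cells and 56.3 in the other eWAT_DFAT cells, and core-high cells held only 4.10% of its iWAT_DFAT UMIs. Without core-high cells in any library, 21 of 33 members were 2-fold or more higher in iWAT_DFAT than in eWAT_DFAT, beside 8.14% of all genes, with a median log2 ratio of 1.32, and all 21 were among the 24 higher with all cells. For iWAT_SVF against eWAT_SVF 9 of 25 members were lower, beside 3.83% of all genes, and the median was -0.69. Without all cells that held any core UMI after thinning, 13 of 28 members were higher in iWAT_DFAT, beside 7.44% of all genes, and 1 lower, beside 3.78%. With these cells left out, 4 of 21 were lower in iWAT_SVF, beside 3.66%. Core-high cells were chosen with member counts, so these values describe how the totals divide. The depth of core-high cells was no greater than that of the rest, with medians of 18671 against 22220 UMIs in iWAT_DFAT, 22644 against 27444 in eWAT_DFAT, 22758 against 24940 in iWAT_SVF and 26631 against 27667 in eWAT_SVF. All 197 of the iWAT_DFAT and 211 of 212 of the eWAT_SVF core-high cells held 3 or more stromal markers. Their median of stromal marker UMIs after thinning was 61 in iWAT_DFAT, against 39 in the other cells. Cycling markers were found in 21.8% of the core-high cells of iWAT_DFAT, 37.0% in eWAT_DFAT, 26.3% in iWAT_SVF and 17.5% in eWAT_SVF, each below the share of its library as a whole given further on, and the part of this in the core-high values was not tested. The median of immune marker UMIs was 0 in both classes of cells in all libraries.

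**Figure D4:**
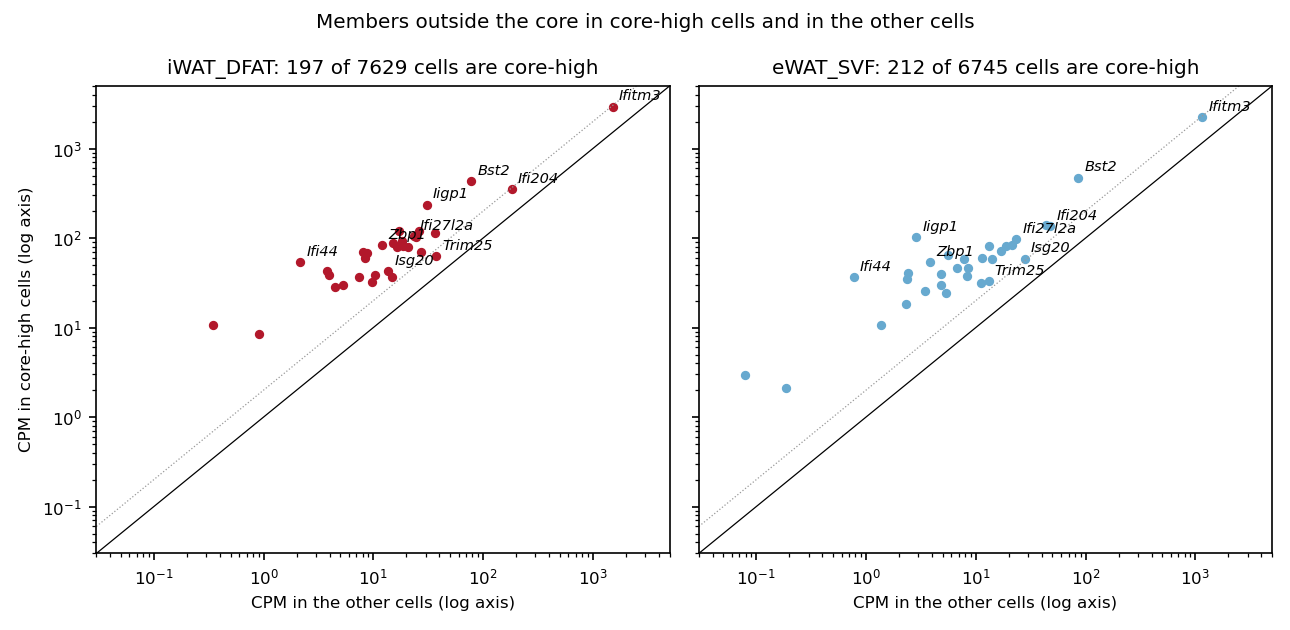
Level of the 32 members outside the core in core-high cells (y axis) and in the other cells (x axis) of iWAT_DFAT and eWAT_SVF, in CPM on log axes; the solid line marks equal levels and the dotted line 2-fold. All points lie above the solid line, and *Ifitm3*, *Ifi204* and *Trim25* lie nearest to it in iWAT_DFAT.

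In 3 of the 4 libraries the pair of members with the highest correlation across single cells was of 2 IFIT genes. Pearson's r over thinned cells of 1 library, where points share the library and depth, reached 0.56 for *Ifit3* and *Ifit3b* in iWAT_DFAT, 0.72 for *Ifit1* and *Ifit3b* in iWAT_SVF and 0.68 for *Ifit1* and *Ifit3* in eWAT_SVF. In iWAT_SVF *Ifit1* and *Ifit3b* were under 5 CPM, and the 1% of cells richest in core UMIs, a set defined above, held 43.6% of them. Of 861 pairs, 13 were at 0.3 or above in iWAT_DFAT, 18 in iWAT_SVF and 25 in eWAT_SVF. The median r of all pairs was 0.069 in iWAT_DFAT, 0.026 in eWAT_DFAT, 0.029 in iWAT_SVF and 0.074 in eWAT_SVF. Pairs of other genes were not counted, so these counts have no background. In eWAT_DFAT 0 pairs reached 0.3, and the highest r there was 0.29, for *Bst2* and *Ifitm3*. *Ifi27l2a* had no r above 0.16 with another member in any library.

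Cells that carried markers of another cell type, meaning a UMI of 3 or more genes of a list, differed in particular members. *Ifi27l2a* was concentrated in cells with adipocyte markers, which numbered 34 in iWAT_DFAT, 188 in eWAT_DFAT and 2 in each SVF library. In iWAT_DFAT 34 such cells held it at 1074 CPM (1005 to 1147), and the other cells at 20.3 CPM. These cells, 0.446% of the library, held 19.3% of its UMIs, although 20 of the 34 had any. In eWAT_DFAT 188 such cells held it at 179 CPM and the other cells at 28.6. With *Ifi27l2a* included, 4 of the 35 members at 5 CPM or more in the other iWAT_DFAT cells were 2-fold or more higher in these cells and 6 lower, beside 7.23% and 14.4% of all genes. In eWAT_DFAT 3 of 21 were higher, *Ifi27l2a*, *Iigp1* and *Gbp2*, and 1 lower, beside 6.72% and 8.29%. *Iigp1* and *Gbp2* were higher, at 48.6 and 47.8 CPM against 5.53 and 14.6 in eWAT_DFAT and at 67.7 and 81.0 CPM against 34.9 and 27.9 in iWAT_DFAT. *Isg15* was at 9.68 against 35.8 CPM in iWAT_DFAT and at 16.0 against 17.02 CPM in eWAT_DFAT. None of the 34 or the 188 cells was core-high, where 2.58% of iWAT_DFAT and 0.418% of eWAT_DFAT cells were. With so few cells at these shares, the count does not set them apart from the rest.

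Among the cells grouped by markers, *Bst2* was highest in those with endothelial or pericyte markers. Cells with endothelial markers held it at 240 CPM in iWAT_DFAT, 255 in eWAT_DFAT, 135 in iWAT_SVF and 258 in eWAT_SVF, where the libraries as a whole ranged from 32.2 to 132 CPM. In eWAT_DFAT 66 cells with pericyte markers held it at 290 CPM. Of the 21 members at 5 CPM or more in the library's other cells, 13 were 2-fold or more higher in those with pericyte markers, beside 5.91% of all genes, among them *Parp14* at 30.6 against 5.94 CPM and *Irf7* at 25.4 against 5.47 CPM. In iWAT_SVF, with 28 such cells, 1 of 18 members was higher and 0 lower, beside 288 and 302 of 9790 genes. The median ratio there was 1.16 for the members and 1.04 for all genes. In eWAT_SVF 547 cells with mesothelial markers held *Oasl2* at 44.4 CPM against 6.05 and *Ifi27l2a* at 91.9 CPM against 20.4. Of the 30 members at 5 CPM or more in the other cells, 5 were 2-fold or more higher there and 0 lower, beside 6.07% of all genes higher, with median ratios of 1.37 for the members and 1.09 for all genes. Cells with mesothelial markers numbered 72 in eWAT_DFAT, 1 in iWAT_SVF and 0 in iWAT_DFAT. In eWAT_DFAT 1 of 21 members was higher in them and 3 lower, beside 5.04% and 8.72% of all genes, with a median ratio of 0.852. Leaving out all cells with immune, endothelial, mesothelial, Schwann or adipocyte markers left 25 of 35 members higher in iWAT_DFAT than eWAT_DFAT, beside 8.83% of all genes, and 14 of 30 lower in iWAT_SVF than eWAT_SVF, beside 3.38%.

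Cells with cycling markers had lower levels of most members. Cells with 3 or more cycling markers made up 45.8% of iWAT_DFAT, 53.3% of eWAT_DFAT, 47.0% of iWAT_SVF and 36.5% of eWAT_SVF. Of the 35 members at 5 CPM or more in iWAT_DFAT, 34 were lower in them than in the other cells, beside 46.9% of all genes, with a median ratio of 0.577 for the members and 1.02 for all genes. In eWAT_SVF 28 of 31 members were lower, beside 48.1% of all genes, with median ratios of 0.711 and 1.01. *Ifit1* had 10.6 CPM in cycling and 29.9 CPM in the other iWAT_DFAT cells. *Oasl1* was near even there, at 7.86 and 8.18 CPM. The depot order held in both classes: among cells without cycling markers 29 of 38 members were 2-fold or more higher in iWAT_DFAT than eWAT_DFAT, beside 9.42% of all genes, and among cells with them 20 of 32, beside 7.14%. For iWAT_SVF against eWAT_SVF the members that were lower numbered 17 of 32, beside 4.23%, and 9 of 25, beside 3.57%. Cells with cycling markers were deeper, with a median of 26700 against 19515 UMIs in iWAT_DFAT.

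**Figure D5:**
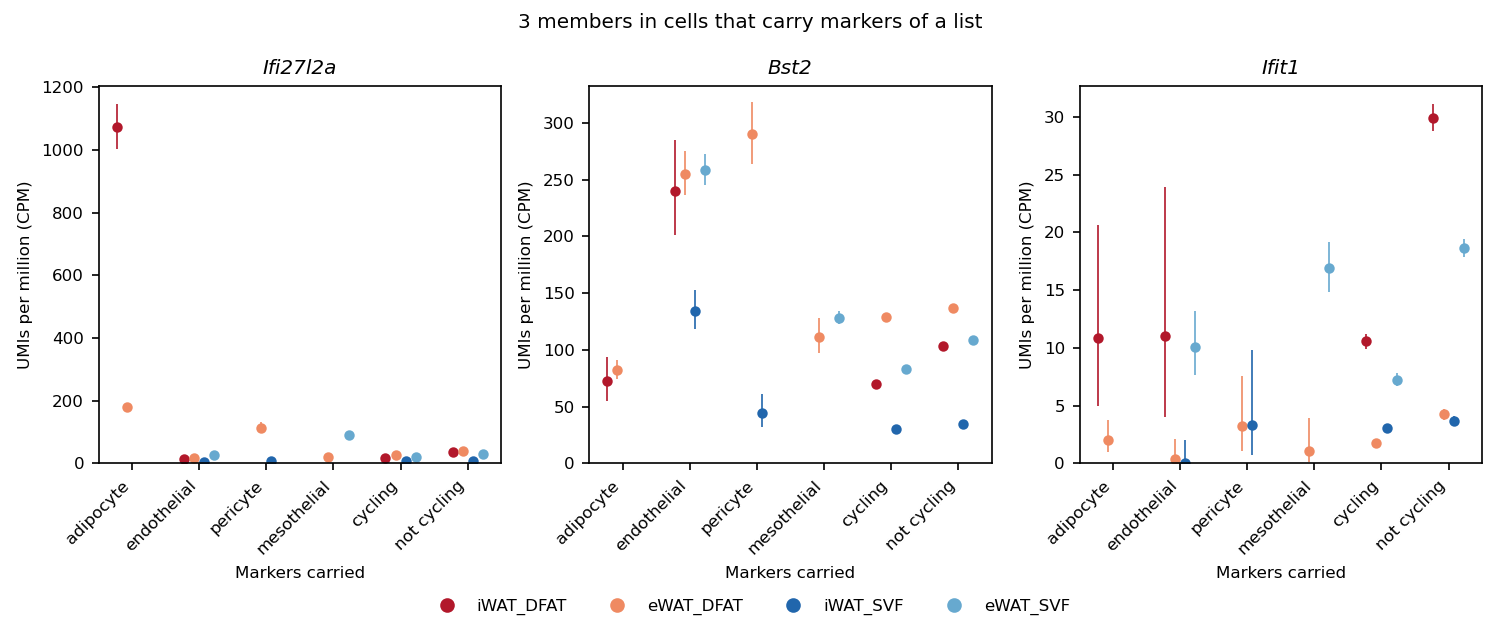
Level of *Ifi27l2a*, *Bst2* and *Ifit1* in cells that carry 3 or more markers of a list, and in cells without cycling markers, for each library with at least 20 such cells; bars are exact 95% Poisson intervals. *Ifi27l2a* reaches 1074 CPM in the adipocyte-marker cells of iWAT_DFAT, *Bst2* is highest with pericyte or endothelial markers, and *Ifit1* is higher without cycling markers in all 4 libraries.

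Neighbouring members were alike in part. There were 10 groups of members less than 1 Mb apart, which held 25 of the 42 members. The *Parp14*, *Dtx3l* and *Parp9* block (chromosome 16, 35832874 to 35972605) had SVF ratios from -1.26 to -0.70, and *Ifi204* with *Ifi203* (chromosome 1, 173747293 to 173942672) from -1.35 to -1.12. *Oas2*, *Oas3* and *Oas1a* (chromosome 5, 120730333 to 120907521) had DFAT ratios from 1.37 to 3.56 and SVF ratios from -3.04 to -2.25. In the DFAT ratios the IFIT group was the least alike of the 10, from -0.26 for *Ifit2* to 3.13 for *Ifit3*, and in the SVF ratios *Oasl2* and *Oasl1* were, at -2.17 and 0.12.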

How the data were processed

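Cultured DFAT and SVF cells of 2 depots were profiled in 4 droplet libraries, 1 per group, grouped by the labels. The authors deposited unfiltered matrices of UMI counts per gene and droplet, aligned to mm10 with Cell Ranger. The submitters' processing notes give Cell Ranger 7.0.0, while the file headers give 7.1.0 for 3 libraries and 4 for iWAT_SVF. Per the methods, reads in introns were counted. The methods give ambient RNA correction and doublet removal for nuclei and state neither for these cultured cells.

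Cells were kept by the limits given above, and no doublet caller was run; leaving out the 5% of cells with the most UMIs in each library was an alternative. UMIs were summed per library and scaled to 1000000 (CPM). Levels have exact 95% Poisson intervals and ratios exact conditional binomial intervals, both for counting error only. A gene was called at 2-fold or more among genes at 5 CPM or more in the higher library, and the same rule over all genes gave the background. No p-value was computed, since cells are not replicates. Cells were thinned once to 5000 UMIs with a fixed seed, which left out no cell. The scripts were tested on simulated data.

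The members and lists were chosen with earlier results of these data known. Named with values in every library were, per role group, the member with the highest level and those with the largest and smallest DFAT ratio at 5 CPM or more, and members at 2-fold or more in all 4 comparisons. Members under 5 CPM throughout are given by ranges, and any further member named was chosen after its values were seen. Positions are from the GENCODE annotation of mm10 and promoters from RefSeq. Overlapping genes, near-identical copies and antisense partners may share reads. Alternatives covered scaling, cell limits, free RNA, thresholds and cells left out. Intervals came from scipy 1.17.1, tables from pandas 2.3.3 with numpy 2.4.6 and plots from matplotlib 3.10.9, under Python 3.11.15.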

Additional observations from a re-analysis of the deposited data

Results flagged for a closer look

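The depot ratio of the members ran in opposite directions in the 2 kinds of culture. The median log2 ratio of iWAT over eWAT was 1.46 over the members tested in the DFAT libraries and -0.997 over those tested in the SVF libraries. For the 13 members at 2-fold or more in both, the log2 ratio in DFAT minus that in SVF was 6.23 for *Isg15*, 4.87 for *Ifit1*, 4.45 for *Ifit3*, 4.25 for *Oasl2*, 4.18 for *Iigp1*, 4.03 for *Rtp4*, 3.93 for *Usp18*, 3.79 for *Zbp1*, 3.44 for *Irf7*, 3.06 for *Ifi204*, 2.95 for *Parp14*, 2.84 for *Gbp7* and 2.63 for *Ifi203*. With 1 library per group this difference was not tested, and culture, animals and library cannot be told apart from depot and cell source.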

How the results depend on the processing

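No paired analysis was possible because each group had 1 library, and no test stands behind any count here. The median log2 ratio of the members kept its sign under all alternatives, from 0.96 to 1.57 for iWAT_DFAT against eWAT_DFAT, -1.23 to -0.46 for iWAT_SVF against eWAT_SVF, 1.29 to 2.14 for iWAT_DFAT against iWAT_SVF and -0.85 to -0.13 for eWAT_DFAT against eWAT_SVF. The cause of a change was not tested. With a minimum of 20 CPM, fewer members were tested and 5 of 12 were higher in iWAT_DFAT than eWAT_DFAT (7.95% of all genes), 4 of 9 lower in iWAT_SVF than eWAT_SVF (3.47%), 10 of 13 higher in iWAT_DFAT than iWAT_SVF (10.0%) and 3 of 9 lower in eWAT_DFAT than eWAT_SVF (6.05%). With 4-fold these were 9 of 35 (2.20%), 4 of 31 (1.29%), 16 of 36 (3.82%) and 2 of 31 (2.0%). At 1.5-fold 31 of 35 members were higher in iWAT_DFAT than eWAT_DFAT (17.6% of all genes) and 1 lower (9.10%). In iWAT_SVF against eWAT_SVF 22 of 31 were lower (7.44%) and 1 higher (7.25%). For iWAT_DFAT against iWAT_SVF 30 of 36 were higher (18.4%) and 2 lower (10.1%). In eWAT_DFAT against eWAT_SVF 17 of 31 were lower (13.1%). At a minimum of 1 CPM, 17 of 40 were lower there (8.15%) and 1 higher (8.98%). In iWAT_DFAT against iWAT_SVF 1 member was lower under some alternatives, beside 5.03% to 5.78% of all genes. Among these were the median ratio of all genes set to 1, cells at 10000 or more UMIs and no upper limit on genes. The others left out cells with markers of other types, the 1% of cells richest in members or core-high cells, or kept cells with cycling markers alone. The alternatives that leave out core-high or core-positive cells, or split cells by cycling markers, were chosen after seeing the data. Without core-high cells 9 of 25 members were lower in iWAT_SVF than eWAT_SVF (3.83% of all genes), and of 26 members 7 were lower (6.54%) and 1 higher (6.36%) in eWAT_DFAT than eWAT_SVF. Without cells with any core UMI 13 of 28 were higher (7.44%) and 1 lower (3.78%) in iWAT_DFAT than eWAT_DFAT, and 4 of 21 lower in iWAT_SVF than eWAT_SVF (3.66%). With the same cells left out, 17 of 29 were higher (9.36%) and 2 lower (5.18%) in iWAT_DFAT than iWAT_SVF. In eWAT_DFAT against eWAT_SVF 4 of 21 were lower (6.57%) and 1 higher (6.32%). In cells with cycling markers 9 of 25 were lower in iWAT_SVF than eWAT_SVF (3.57%) and 7 of 25 lower in eWAT_DFAT than eWAT_SVF (6.403%). The median level, in CPM, became 16.3 in iWAT_DFAT and 5.43 in eWAT_DFAT as a mean over cells, and 4.53 in eWAT_DFAT and 7.64 in eWAT_SVF without cells with markers of other types. In the order iWAT_DFAT, eWAT_DFAT, iWAT_SVF and eWAT_SVF it was 14.1, 4.5, 2.73 and 7.47 without the 1% of cells richest in members, 7.4, 3.12, 2.59 and 4.41 without cells with a core UMI, and 18.6, 6.17, 3.66 and 9.94 in cells without cycling markers. Without core-high cells it was 13 in iWAT_DFAT, 2.77 in iWAT_SVF and 6.41 in eWAT_SVF, and in cells with cycling markers 10.8 in iWAT_DFAT, 3.69 in eWAT_DFAT and 5.92 in eWAT_SVF. The richest 10% of cells held, in the same order of libraries, 19.1, 18.7, 18.5 and 23.8% of member UMIs at full depth and 34.4, 38, 37.1 and 43.1% without *Ifitm3* and *Bst2*. The median member had a UMI in 21.2, 9.79, 6.88 and 14% of cells at full depth and 2 or more UMIs in 0.786, 0.139, 0.0943 and 0.326% of thinned cells. Depth limits the members under 5 CPM, such as *Oas2* and *Oas3*, with 6 and 7 UMIs in iWAT_SVF.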
